A study of Mus musculus with 12 samples.

Results

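The 10 genes described here, Clec7a, Itgax, Cst7, Spp1, Axl, Gpnmb, Lyz2, Cd52, Cd9 and Cd63, form a core of the transcripts that microglia raise around amyloid plaques. They were chosen by name, and all 10 are among the 24318 genes of a deposited table of FPKM, fragment counts divided by transcript length and by the size of the library. The table covers 6 hippocampal libraries under the title prefix CG, 3 from wild-type (WT) and 3 from 5xFAD mice, all 7 months old and given no labelled treatment. The 5xFAD strain carries transgenes with familial Alzheimer's disease mutations, human APP among them, under a Thy1 promoter that is active in neurons, so it models amyloid deposition from neurons. The remaining 6 of the 12 samples, under the prefix AT, gave a table of intervals taken as back-splice junctions of circular RNA. Strain background and sex are not given in the labels, and nothing in them says that the 3 samples of a group came from separate animals, and p-values therefore reflect only how these samples scatter, which could be technical scatter.

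Microglia are the resident macrophages of the brain. Around amyloid deposits they leave their resting state and switch on a programme of surface receptors, lysosomal proteins, lipid handling genes and secreted factors, part of which depends on the lipid receptor Trem2. Several genes of the programme are not private to microglia: Itgax is also made by dendritic cells, Lyz2 by monocytes and neutrophils, Spp1 by macrophages at the brain's borders, Axl by vessel and glial cells, Cd9 by oligodendrocytes, and Cd63 by most cells.

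The libraries differed in ways their labels do not state. Thy1, which carries the promoter of the transgenes, was at 296 to 340 FPKM across WT against 1136 and 1172 for 5xFAD replicates 1 and 2, with 305 for the library labelled 5xFAD replicate 3, which goes against that label. The tests are therefore given with this library (6 libraries) and without it (5 libraries), and leaving it out was decided with earlier results known. Not every gene goes against the label. The largest fall of all genes tested, -11.75 in log2(FPKM + 1), was the same with this library and without it. Ttr, a marker of choroid plexus, stood at 2758 FPKM in WT replicate 1 and at 467 in the library labelled 5xFAD replicate 3, against 32.9 to 62.6 in the others. Xist, looked at after its values were seen, was at 0.246 and 0.136 FPKM in replicate 1 of WT and of 5xFAD and at 99.9 to 112 in the rest. Total FPKM ran from 385214 to 412157. Depth in reads is unknown, and the lowest values put it at 0.793 to 1.15 times that of WT replicate 1.

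In 5xFAD replicates 1 and 2, each of the 10 genes lay above its highest WT value. Such a complete separation was found in 10.6% of the 14527 genes tested in these 5 libraries. The size of the difference varied widely among the 10, from 1.65 times the WT mean for Cd63 to 168 times for Cst7, whose WT mean was only 0.275 FPKM. Limma (adjusted p under 0.05 over all genes tested) called 8 of 10 higher, against 1.18% of all genes called higher and 0.0138% called lower, and did not call Axl and Cd63. That count was 5 of 10 without WT replicate 2, WT replicate 3 or 5xFAD replicate 1. All genes called numbered 174 in the 5 libraries, 106 without WT replicate 2 and 84 without WT replicate 3. Since the RNA came from whole hippocampal tissue, more microglia and more RNA per microglial cell cannot be told apart in these values. Over all 6 libraries the same test called 0 of 10, with 0% of genes called higher in 5xFAD and 0.00690% called lower. At an unadjusted p under 0.05, 8 of 10 were counted over the 6 libraries, against 2.92% of all genes.

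**Figure D1:**
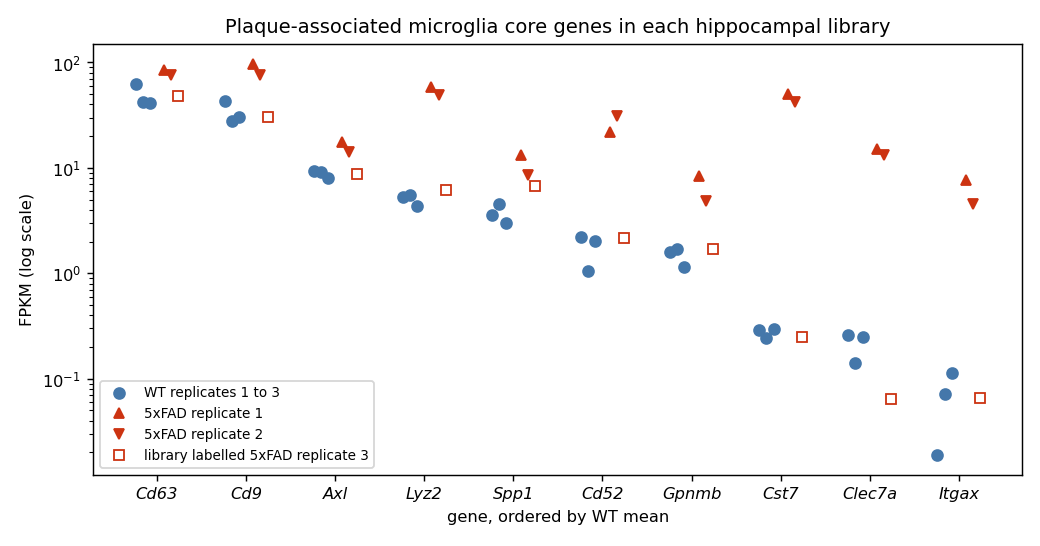
FPKM of the 10 genes on a log axis in each CG library, ordered by WT mean, with WT as circles, 5xFAD replicates 1 and 2 as filled triangles and the library labelled 5xFAD replicate 3 as an open square. The filled triangles lie above every circle for all 10 genes, while the square lies above them only for Lyz2 and Spp1.

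The library labelled 5xFAD replicate 3 lay within the WT range for 7 of the 10 genes, as it did for 68.7% of all 14500 genes tested over the 6 libraries. It lay below that range for Clec7a and above it for Lyz2 and Spp1, and 14.0% of all genes were above the WT range in this library. The median log2 distance of the 10 genes from their WT means was 2.48 in 5xFAD replicate 1, 1.81 in replicate 2 and 0.01 in the library labelled replicate 3. Set against only 2 WT libraries, it lay above both for 4 of the 10 genes and 25.5% of all genes without WT replicate 1. Without WT replicate 2 this was so for 3 of the 10 and 28.6% of all, and without WT replicate 3 for 2 of the 10 and 20.8% of all.

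Promoters of 5 genes are shown, those of Cst7, Clec7a, Lyz2, Itgax and Gpnmb, which had the largest differences in the 5 libraries among the genes with an entry in the sequence table. Each is the 250 bases before the annotated transcription start in the RefSeq table of build GRCm38.p6, on the strand of the gene, and capitals mark GGAAGT or its reverse complement ACTTCC, the core letters of ETS factors such as the myeloid regulator PU.1, and TGANTCA, the letters of AP-1.
Cst7, chr2:150570165-150570414, plus strand: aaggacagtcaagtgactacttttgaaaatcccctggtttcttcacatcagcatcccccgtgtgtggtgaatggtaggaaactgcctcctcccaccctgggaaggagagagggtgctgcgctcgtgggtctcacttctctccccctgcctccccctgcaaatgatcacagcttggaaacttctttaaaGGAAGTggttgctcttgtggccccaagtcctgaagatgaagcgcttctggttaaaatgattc
Itgax, chr7:128129300-128129549, plus strand: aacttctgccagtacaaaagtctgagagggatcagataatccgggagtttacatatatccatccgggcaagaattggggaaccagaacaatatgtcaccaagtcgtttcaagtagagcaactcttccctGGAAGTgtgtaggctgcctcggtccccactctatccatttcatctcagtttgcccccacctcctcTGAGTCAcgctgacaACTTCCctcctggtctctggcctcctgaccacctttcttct
Lyz2, chr10:117282273-117282522, minus strand: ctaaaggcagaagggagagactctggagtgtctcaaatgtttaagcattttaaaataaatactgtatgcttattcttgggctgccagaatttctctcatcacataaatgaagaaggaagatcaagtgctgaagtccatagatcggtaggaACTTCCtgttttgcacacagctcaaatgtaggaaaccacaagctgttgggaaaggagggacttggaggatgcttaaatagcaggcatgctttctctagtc
Clec7a, chr6:129472780-129473029, minus strand: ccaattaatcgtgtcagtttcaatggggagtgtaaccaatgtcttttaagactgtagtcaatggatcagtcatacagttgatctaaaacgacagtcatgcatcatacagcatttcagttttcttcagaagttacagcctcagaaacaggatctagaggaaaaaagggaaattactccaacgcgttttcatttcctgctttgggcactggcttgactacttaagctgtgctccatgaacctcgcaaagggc
Gpnmb, chr6:49036268-49036517, plus strand: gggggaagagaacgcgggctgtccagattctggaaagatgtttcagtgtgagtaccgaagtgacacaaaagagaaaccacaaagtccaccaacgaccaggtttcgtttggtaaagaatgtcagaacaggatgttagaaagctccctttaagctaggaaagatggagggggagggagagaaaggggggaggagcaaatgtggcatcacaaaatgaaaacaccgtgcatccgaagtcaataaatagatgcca
Of the 10 genes, 9 had an entry, and Cd52 did not. GGAAGT, read on both strands, was found in a window of 5 of the 9 (Cst7, Itgax, Lyz2, Spp1 and Cd63) and in 19.7% of all 32851 windows of this length. Gene counts take any window of a gene, while the percentages are per window, so they are not like for like. TGANTCA was found in the Itgax window and in 6.75% of all windows. CACGTG, the E-box letters, was found in none of the 9 genes' windows and in 6.02% of all. Clec7a and Spp1 each have a second annotated start, and neither second window held any of the 3 motifs. The Clec7a and Gpnmb windows shown hold none of the 3 either. These matches describe letters in the reference sequence, and no binding was measured.

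Cst7 encodes cystatin F, an inhibitor of lysosomal cysteine proteases. Its FPKM was 0.288, 0.243 and 0.295 across WT against 49.7 and 42.4 for 5xFAD replicates 1 and 2, with 0.250 for the library labelled 5xFAD replicate 3. Only 5xFAD replicates 1 and 2 were high, and the lower of them stood 144 times above the highest WT value. The log2(FPKM + 1) difference was 5.20 (SE 0.13, limma adjusted p = 6.43e-06) in the 5 libraries, the largest rise of all 14527 genes, and 3.46 (SE 1.25) over the 6. This scale, used for every difference below, understates the change of genes with low values.

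Clec7a encodes dectin-1, a receptor for fungal glucans that signals through the kinase Syk. Its FPKM was 0.262, 0.142 and 0.249 across WT against 15.2 and 13.2 for 5xFAD replicates 1 and 2, with 0.0649 for the library labelled 5xFAD replicate 3. That last value was the lowest of the 6, and the groups did not overlap without it. Clec7a rose by 3.64 (SE 0.14, limma adjusted p = 9.97e-05), the third rank among all genes tested, and by 2.36 (SE 0.92) over the 6 libraries without passing the test.

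Itgax encodes CD11c, the alpha subunit of a leukocyte integrin that pairs with Itgb2. It was at 0.0188, 0.0712 and 0.115 FPKM across WT against 7.73 and 4.58 for 5xFAD replicates 1 and 2, with 0.0652 for the library labelled 5xFAD replicate 3. The WT values are near the bottom of what the table lists and differ among themselves, so the ratio of means, 90.3, is imprecise. The lower 5xFAD value was 40.0 times the highest WT value. Itgax rose by 2.71 (SE 0.21, limma adjusted p = 0.00131) in the 5 libraries, and the difference over the 6 was 1.80 (SE 0.67).

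Lyz2, a lysozyme of macrophages, was at 5.25, 5.54 and 4.39 FPKM across WT against 58.3 and 49.3 for 5xFAD replicates 1 and 2, with 6.16 for the library labelled 5xFAD replicate 3. All 3 libraries labelled 5xFAD were above WT, replicate 3 by a small margin, and Spp1 was the other gene of the 10 with that pattern, which 2.92% of all genes showed. Lyz2 rose by 3.18 (SE 0.14, limma adjusted p = 0.000148), 10.6 times in means, and differed by 2.20 (SE 0.70) over the 6 libraries. Lyz1, a near-identical neighbour that could share its reads, was listed at 0.0697, 0 and 0.142 FPKM across WT, against 0.415 and 0.501 for 5xFAD replicates 1 and 2, with 0.121 for the library labelled 5xFAD replicate 3. Lyz1 was too low to be tested.

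Cd52, a short glycoprotein anchored to the surface of leukocytes, was at 2.19, 1.05 and 2.01 FPKM across WT against 22.1 and 30.8 for 5xFAD replicates 1 and 2, with 2.17 for the library labelled 5xFAD replicate 3. WT replicate 2 was the lowest and 5xFAD replicate 2 the highest. Cd52 rose by 3.33 (SE 0.23, limma adjusted p = 0.000751), 15.1 times in means, and differed by 2.29 (SE 0.76) over the 6 libraries. It was the only gene of the 10 that was higher in 5xFAD replicate 2 than in replicate 1.

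Gpnmb and Spp1 gave smaller and less even rises. Gpnmb, a glycoprotein of lysosomes and melanosomes, was at 1.60, 1.72 and 1.16 FPKM across WT against 8.42 and 4.87 for 5xFAD replicates 1 and 2, with 1.70 for the library labelled 5xFAD replicate 3. The last was within the WT range, and the other 2 were above it. Gpnmb rose by 1.58 (SE 0.22, limma adjusted p = 0.0207) and differed by 1.10 (SE 0.40) over the 6 libraries. That call ended without WT replicate 2 (adjusted p = 0.0554), WT replicate 3 (0.0805) or 5xFAD replicate 1 (0.160), and when low genes were not filtered (0.0670).

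Spp1 encodes osteopontin, a secreted ligand of integrins and of Cd44. It was at 3.61, 4.59 and 3.01 FPKM across WT against 13.2 and 8.56 for 5xFAD replicates 1 and 2, with 6.71 for the library labelled 5xFAD replicate 3. Every library labelled 5xFAD was above every WT library, and the library labelled replicate 3 stood at 1.80 times the WT mean, the highest such ratio of the 10 genes. In that same library Ttr was at 467 FPKM and 9 markers of border macrophages summed to 8.08 FPKM, against 5.22 to 5.68 in WT, and their part in the Spp1 value was not tested. Spp1 rose by 1.31 (SE 0.21, limma adjusted p = 0.0377) in the 5 libraries and differed by 1.11 (SE 0.23) over the 6, with the smallest unadjusted p of the 10 there, 0.00127. The 5-library call ended without any 1 of the 5 libraries (adjusted p from 0.0521 to 0.325), with quantile normalization (0.0550) and when low genes were not filtered (0.103).

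The tetraspanins Cd9 and Cd63 are membrane organisers of the cell surface and of endosomes, and they were the most abundant of the 10 per length. Cd9 was at 43.0, 28.1 and 30.6 FPKM across WT against 97.7 and 76.5 for 5xFAD replicates 1 and 2, with 30.2 for the library labelled 5xFAD replicate 3. Cd63 was at 62.1, 42.2 and 41.2 FPKM across WT against 84.5 and 75.9 for 5xFAD replicates 1 and 2, with 47.9 for the library labelled 5xFAD replicate 3. In both genes WT replicate 1, the library with 2758 FPKM of Ttr, was the highest WT library, and whether choroid plexus RNA had a part in this was not tested. Cd9 rose by 1.35 (SE 0.20, limma adjusted p = 0.0247) and differed by 0.85 (SE 0.39) over the 6 libraries. Its call ended without WT replicate 2 (0.0590), WT replicate 3 (0.109), 5xFAD replicate 1 (0.276) or 5xFAD replicate 2 (0.109), and when low genes were not filtered (0.0681). Cd63 differed by 0.74 (SE 0.19, 95% interval 0.30 to 1.18, limma adjusted p = 0.217) and did not pass, nor did its 0.49 (SE 0.23) over the 6 libraries. Without WT replicate 1 it differed by 0.93 and passed (limma adjusted p = 0.0127), and it also passed with array quality weights (0.0346).

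Axl, a receptor tyrosine kinase that binds Gas6, was at 9.29, 9.07 and 8.01 FPKM across WT against 17.5 and 14.1 for 5xFAD replicates 1 and 2, with 8.85 for the library labelled 5xFAD replicate 3. The 5xFAD values were clear of WT, and the library labelled replicate 3 was among the WT values. The difference was 0.77 (SE 0.14, 95% interval 0.45 to 1.10, limma adjusted p = 0.0539), just short of the threshold, and 0.52 (SE 0.21) over the 6 libraries. With array quality weights it passed (limma adjusted p = 0.0165).

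**Figure D2:**
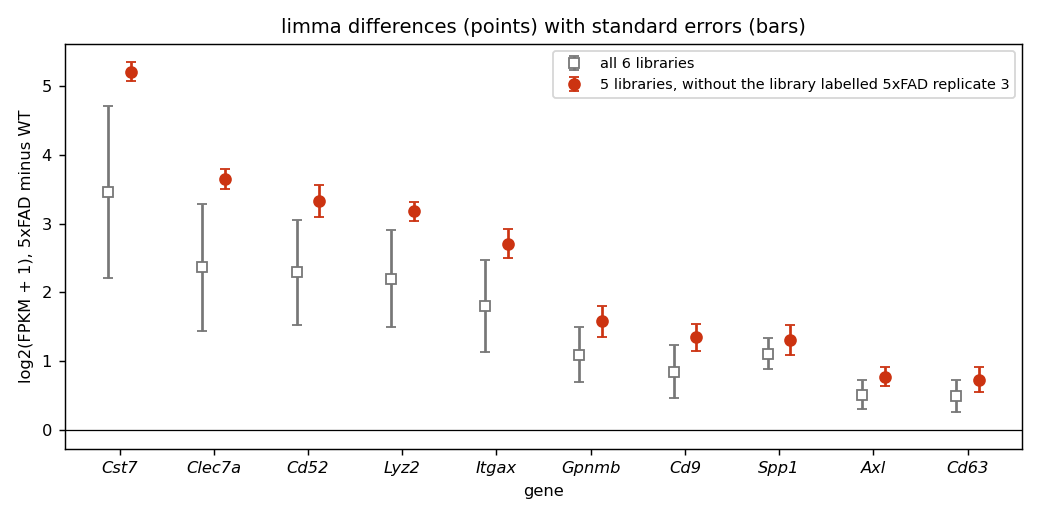
Difference of log2(FPKM + 1), 5xFAD minus WT, from limma for each of the 10 genes, with standard errors as bars, over all 6 libraries (open squares) and over the 5 without the library labelled 5xFAD replicate 3 (filled circles). In the 5 libraries the differences run from 0.74 for Cd63 to 5.20 for Cst7, and the bars of the 6-library differences are wider in each gene.

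The calls of Cst7, Clec7a, Itgax, Lyz2 and Cd52 held in the 5-library fit under each of the 15 alternatives tried. Clec7a, Itgax and Cst7 were under the minimum of 0.5 FPKM in every WT library and so entered the test through the 5xFAD libraries. They were called without that filter too.

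The order of the 10 genes by FPKM, a level per length, differed between the groups. In WT the order was Cd63, Cd9, Axl, Lyz2, Spp1, Cd52, Gpnmb, Cst7, Clec7a and Itgax, from 48.5 down to 0.0682 FPKM. The ranges of Cd63 and Cd9, Lyz2 and Spp1, Cd52 and Gpnmb, and Cst7 and Clec7a overlapped between libraries. Within each of the 3 WT libraries Cd63 was nevertheless above Cd9, Lyz2 above Spp1 and Cst7 above Clec7a, while Cd52 was above Gpnmb in 2 of 3. In 5xFAD replicates 1 and 2 the order was Cd9, Cd63, Lyz2, Cst7, Cd52, Axl, Clec7a, Spp1, Gpnmb and Itgax, from 87.1 to 6.16 FPKM, with overlapping ranges for Cd9 and Cd63, Lyz2 and Cst7, Axl and Clec7a, and Gpnmb and Itgax, though the order held within both libraries. Cst7 was at the eighth place in WT and at the fourth here. The library labelled 5xFAD replicate 3 had the order Cd63, Cd9, Axl, Spp1, Lyz2, Cd52, Gpnmb, Cst7, Itgax and Clec7a, which differs from that of WT in the places of Spp1 and Lyz2 and of Itgax and Clec7a.

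The summed FPKM of the 10 genes was 128, 92.7 and 91.1 across WT against 374 and 320 for 5xFAD replicates 1 and 2, with 104 for the library labelled 5xFAD replicate 3. Cd9 and Cd63 together held 82.4%, 75.8% and 78.9% of that sum across WT, against 48.7% and 47.6% for 5xFAD replicates 1 and 2, with 75.0% for the library labelled 5xFAD replicate 3. The share of Cst7 was 0.226% to 0.324% in WT and 13.3% in each of 5xFAD replicates 1 and 2, with 0.241% for the library labelled 5xFAD replicate 3. The shares of Spp1 and Gpnmb in 5xFAD replicates 1 and 2 overlapped those of WT. Between 5xFAD replicates 1 and 2, 9 of the 10 genes were higher in replicate 1, with a median ratio of 1.21. Of the 172 genes called higher in the 5 libraries, 62.2% were higher in replicate 1, with a median ratio of 1.065, and of all 14527 genes tested 48.9%, with a median ratio of 0.994. The ratio of replicate 1 to replicate 2 was 1.73 for Gpnmb, 1.69 for Itgax and 1.54 for Spp1, and 0.717 for Cd52. Replicate 1 is the library low in Xist, and with 2 libraries this contrast has no test.

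Genes that mark microglia in any state moved in the same 2 libraries, so the 10 genes were also set against them. The reference was the mean log2(FPKM + 1) of 8 pan-microglial genes, among them Aif1, Itgam, Ptprc, Csf1r and Cx3cr1, and it was 3.00, 3.15 and 3.16 across WT against 4.60 and 4.56 for 5xFAD replicates 1 and 2, with 3.15 for the library labelled 5xFAD replicate 3. Limma was run on the log2 levels minus this mean, a test added after the values were seen. Because the reference itself rose by 1.48, 98.6% of all genes were called lower on this relative scale and 0.220% higher.

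Of the 10 genes, 5 rose beyond the reference. Relative to it, Cst7 was higher by 3.73 (SE 0.16), Clec7a by 2.17 (SE 0.17), Cd52 by 1.85 (SE 0.26), Lyz2 by 1.70 (SE 0.16) and Itgax by 1.23 (SE 0.21), with limma adjusted p-values from 1.48e-05 to 0.000407. Because nearly all genes were called on this scale, the adjustment hardly changed the larger p-values. For Itgax the limma p was 0.000359 before it and 0.000407 after. Adjusted p-values on this scale are therefore not comparable with those of the other fits. For these 5 genes both 5xFAD libraries lay above all WT libraries on the relative scale, as 0.289% of all genes did. Cst7, Clec7a and Itgax met the 0.5 FPKM minimum of this fit only through the 5xFAD libraries. The relative fit was not run without that minimum. Gpnmb (0.11, SE 0.23), Cd9 (-0.13, SE 0.22) and Spp1 (-0.16, SE 0.21) were not called in either direction, and their groups overlapped. Axl differed by -0.70 (SE 0.16, limma adjusted p = 0.00210) and Cd63 by -0.74 (SE 0.22, limma adjusted p = 0.00915), both called lower, as were nearly all genes on this scale. With the homeostatic list below as the reference, 5 of 10 genes were again called higher and 0 lower. Over the 6 libraries 0 of 10 were called higher or lower on this scale, and with the homeostatic reference or a pseudocount of 0.1 there 1 was called higher. Of all genes, 0% were called higher and 0.00690% lower over the 6 libraries with the pan-microglial reference. Shares of all genes were not counted with the homeostatic reference or that pseudocount. Those counts of the 10 genes therefore stand without a background.

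**Figure D3:**
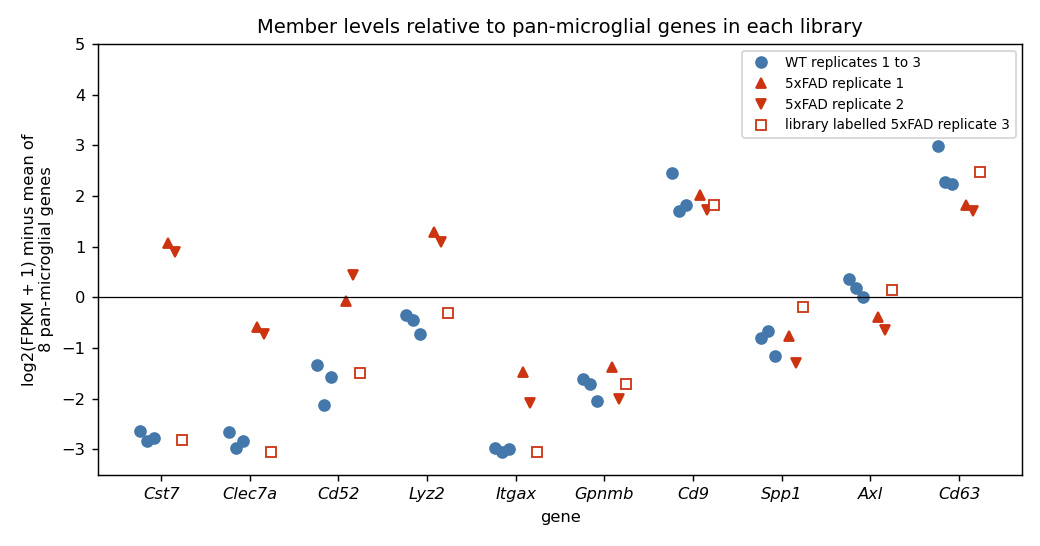
Log2(FPKM + 1) of each gene minus the mean of the 8 pan-microglial genes, by library, with the symbols of the plot of FPKM, ordered by the 5-library difference. For Cst7, Clec7a, Cd52, Lyz2 and Itgax both filled triangles lie above every WT circle, while for Axl and Cd63 they lie below.

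Genes of homeostatic microglia mark the resting state. Of 12 such genes, 7 were called higher and 0 lower, with a median difference of 1.13, against 2.15 for the 10 core genes and -0.02 for all genes tested. Fcrls differed by 1.71, the growth factor receptor Csf1r by 1.32 and Olfml3 by 1.29, each called. They are named because they are among the 4 with the smallest p. All 12 differences were positive, from 0.45 to 1.71, and the smallest was not called. A further list of plaque-associated genes had 31 members in the table, of which 14 were called higher and 0 lower, with a median of 0.90. The chemokine Ccl3 rose by 3.05, Trem2 by 3.00, the chemokine Ccl6 by 2.78 and the endosomal glycoprotein Cd68 by 2.51. These 4 had the smallest p of that list. Of its 31 differences 29 were positive, and the lowest was -0.18. Among the 4, Ccl3 was under 0.5 FPKM in every WT library and entered the test through the 5xFAD libraries. The homeostatic count fell to 4 without WT replicate 3 or 5xFAD replicate 2 and to 2 without 5xFAD replicate 1, and the plaque-associated count to 9 and 8 without 5xFAD replicate 2 and 1. Over the 6 libraries 0 genes of either list, and 0 of the partner and cell type lists below, were called. These lists are descriptions beside the core genes and were drawn up with earlier results of these data known.

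Signalling partners of the surface receptors were tested in the same 5 libraries. Of 6 genes that carry the Clec7a signal, 1 was called: Vav1, an exchange factor, rose by 1.13 (limma adjusted p = 0.0188). The kinase Syk differed by 0.44, the lipase Plcg2 by 0.71, the adaptor Card9 by 0.59, and Bcl10 and Malt1, which act with Card9, by 0.14 and 0.12, none past the test. Of the Itgax partners, Itgb2, the beta subunit, rose by 1.68 (limma adjusted p = 0.00136) and Itgam, the alpha subunit of the related complement receptor, by 1.08 (0.0175). The ligands Icam1 and C3 differed by 0.78 and 0.70 without passing, and Itgal, another alpha subunit, was too low to be tested. In the receptor family of Axl and its ligands, the ligand Pros1 rose by 0.72 (limma adjusted p = 0.0415). The receptors Mertk and Tyro3 differed by 0.37 and -0.11, and Gas6, the ligand of Axl, by 0.03. Pros1 was at 4.00, 4.06 and 4.13 FPKM across WT, against 7.25 and 7.43 for 5xFAD replicates 1 and 2, with 4.38 for the library labelled 5xFAD replicate 3.

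Receptors of Spp1 were measured in the same libraries. The integrin subunit Itgb5 rose by 0.98 (limma adjusted p = 0.00913), from 11.6, 13.1 and 11.5 FPKM in WT to 24.3 and 25.3, with 11.8 for the library labelled 5xFAD replicate 3. Of 7 receptor genes it was the 1 called. Itgb3 differed by 0.73, Cd44 by 0.70, Itgb1 by 0.12, Itgav by 0.09, Itga9 by 0.04 and Itga4 by -0.29.

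Among proteases that cystatin F acts on and related cystatins, 1 of 5 tested genes was called. Cathepsin H (Ctsh) rose by 1.19 (limma adjusted p = 0.00857). Cathepsin C (Ctsc) and cathepsin L (Ctsl) differed by 0.92 and 0.90 (limma adjusted p = 0.0635 and 0.0627), the asparaginyl protease Lgmn by 0.68 and the abundant cystatin Cst3 by 0.66. Each of these 5 differences was smaller than the 5.20 of Cst7, and the difference between them was not tested. Cst6 was too low to be tested. Of the transcription factors of the family that acts on Gpnmb, Tfeb differed by 0.47, Tfe3 by 0.17 and Mitf by 0.11, none past the test, and Tfec was too low to be tested.

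Other tetraspanins showed which members of the family moved. Cd37 and Cd53, which are restricted to leukocytes, rose by 1.77 (limma adjusted p = 0.00701) and 1.31 (0.0107), and Cd53 is also among the 8 reference genes. Cd81 differed by 0.27, Cd82 by 0.37, Cd151 by 0.36, Tspan4 by 0.45, Tspan3 by -0.07 and Tspan7 by -0.06, and none of these 6 was called. Cd24a, which shares the short anchored form of Cd52, differed by -0.43 and did not pass. Siglecg, a receptor reported to bind Cd52, was too low to be tested.

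**Figure D4:**
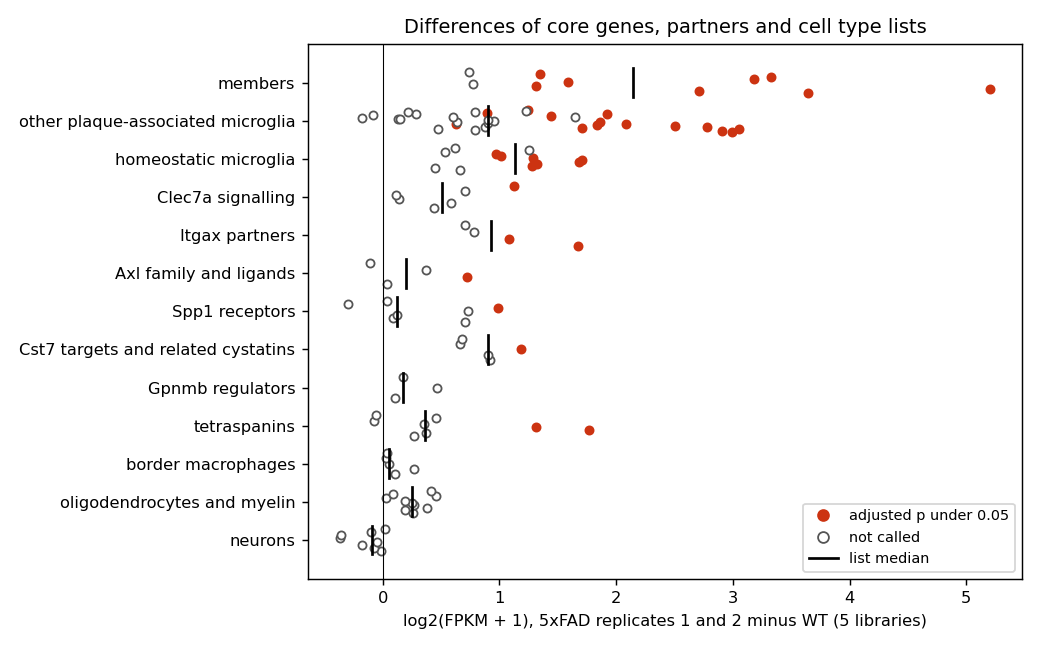
Differences of log2(FPKM + 1) in the 5 libraries for the core genes (members), their partners and several cell type lists, one point per tested gene, filled where the limma adjusted p is under 0.05, with the list median as a bar. The core genes have a median of 2.15, homeostatic microglia 1.13, neurons -0.09, and no point of the border macrophage, myelin or neuron lists is filled.

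Markers of the other cells that make some of these genes were read in the same libraries. Of 9 border macrophage markers, 5 were tested and 0 called, and their summed FPKM was 5.22 to 5.68 across WT, against 5.35 and 7.56 for 5xFAD replicates 1 and 2. Of 9 neutrophil and monocyte markers in the table, 2 were tested and 0 called, 7 stayed under 1 FPKM in every library, and the sum was 1.10 to 1.23 across WT, against 1.05 and 4.07 for 5xFAD replicates 1 and 2, with 1.41 for the library labelled 5xFAD replicate 3. In 5xFAD replicate 2 the neutrophil gene S100a9 was at 1.90 FPKM. Of 14 dendritic cell and lymphocyte markers, 12 stayed under 1 FPKM in every library and 0 of 2 tested were called. No marker of these 3 lists was at 0 in all 6 libraries. The 10 myelin genes had a median difference of 0.25 with 0 called and summed to 1753 to 1906 FPKM across WT, against 2109 and 2163 for 5xFAD replicates 1 and 2, with 1729 for the library labelled 5xFAD replicate 3, and their part in the Cd9 value was not tested. The 8 vessel genes had a median of 0.05 with 0 called, and 8 astrocyte genes a median of 0.07 with 0 called. That list does not hold Gfap, the filament of astrocytes, which rose by 2.30 (SE 0.16, limma adjusted p = 0.000748) in the 5 libraries and differed by 1.54 (SE 0.55) over the 6. The 8 neuron genes had a median of -0.09 with 0 called. Of the 8 choroid plexus and ependyma genes 0 were called, and their sum was 2887 FPKM in WT replicate 1, 502 in the library labelled 5xFAD replicate 3 and 47.7 to 79.7 in the others. No gene of these lists passed limma over all genes tested, and for lists with 2 to 10 tested genes this says little about small differences.

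The genes whose profile over the 6 libraries was closest to the median profile of the 10 were sought among all others tested, by the root mean square distance of their log2 levels from the WT mean. These were Gfap (distance 0.13), C1qb (0.14), Ctsz (0.17), Lag3 (0.18) and Ctss (0.19). C1qb is a chain of the first complement component, Ctsz and Ctss are lysosomal cathepsins, and Lag3 is an inhibitory receptor of lymphocytes. Lag3 was at 1.42, 1.53 and 1.52 FPKM across WT against 10.9 and 8.14 for 5xFAD replicates 1 and 2, with 2.14 for the library labelled 5xFAD replicate 3. The 10 core genes themselves lay 0.34 to 1.77 from their median profile, with Cst7 the farthest.

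None of the 7025 back-splice intervals of the AT table, which carry 2948 gene names, was named for any of the 10 genes. Junctions below the authors' listing were not analysed here, so this says only that none was listed. Of 89 partner, plaque-associated and microglial genes looked up in the same way, 8 were named: Cadm1 with 8 intervals, Tspan7 with 3, Mitf with 2, and Ank, Mertk, Plcg2, Serpine2 and Tspan3 with 1 each.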

How the data were processed

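RNA was measured in hippocampus of 7-month-old WT and 5xFAD mice in 12 samples, 3 in each of 4 groups, grouped by the genotype and prefix in their titles. Per the labels' protocols, TRIzol RNA was depleted of rRNA, made into NEBNext Ultra libraries and sequenced in pairs on a HiSeq. The authors deposited FPKM per gene for the CG libraries. Per the submitters' processing notes the build was mm9, with quantifier and annotation not given in the sources used here. Being scaled within a library, each FPKM is a share of it, and depth in reads is unknown. Limma 3.58.1 in R 4.3.3 with a mean trend was run on log2(FPKM + 1) over all genes with a mean of at least 0.5 FPKM, two-sided, with Benjamini-Hochberg adjustment and calls under 0.05. It tested 14500 genes in the 6 libraries and 14527 in the 5.

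The fits were tested on simulated data, with 100 genes changed 2-fold and 100 changed 4-fold, of which 80 and 97 were called in the 6-library setting (14500 genes) and 63 and 94 in the 5-library setting (14527 genes). Among unchanged genes 10 and 9 were called in these settings. The simulation changed all 5xFAD libraries alike. It took its spread from the 5 libraries in both settings, so it does not describe the scatter of the real 6-library fit. Changed genes were drawn at WT levels above those of Cst7, Clec7a, Itgax, Cd52 and Gpnmb, so it does not cover these. Alternatives were other pseudocounts, filters and scalings, array weights, a replicate block, another microglial reference and each library left out. Members and lists were chosen with earlier results of these data known. Named genes are the members, all tested partners of single members, up to 4 genes with the smallest p of each other list, the 5 of closest profile, and checks, less 1 that is not reported here. Values of Xist and Lyz1, of list genes too low to be tested and of the reference genes beyond these were given after they were seen. Of the AT table only gene names were read, and its planned test was not run because no interval names a member. Promoter windows come from RefSeq on GRCm38.p6, and no protein sequences were used here. Same-numbered WT and 5xFAD samples are linked only by their number.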

Additional observations from a re-analysis of the deposited data

How the results depend on the processing

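No difference of the 10 genes changed sign in 160 alternative values over the 6 libraries and 150 over the 5. Over the 6 libraries, fits that each left out 1 library called 0 to 8 of the 10 and 1 to 174 of all genes, the upper values without the library labelled 5xFAD replicate 3, and the other settings called 0 of 10 and 1 gene in all. Over the 5 libraries, leaving out 1 more called 5 to 8 of 10, 35 to 174 of all genes (106 without WT replicate 2, 84 without WT replicate 3, 52 without 5xFAD replicate 2), 8 to 13 of the other plaque-associated genes and 2 to 7 of the homeostatic genes. The lowest of these counts came without 5xFAD replicate 1. A fit that leaves 1 library in the 5xFAD arm assumes that it varies like the WT libraries. Fewer libraries give the test less power by construction. With no filter on low values 5 of 10 and 154 genes in all were called, and more genes were then tested, while array quality weights called all 10 and 257 genes in all. Without 1 WT replicate, 2 to 4 of 10 genes lay above WT in the library labelled 5xFAD replicate 3, against 20.8% to 28.6% of all genes. The median level of the 10 relative to the pan-microglial reference differed by 1.04 over the 5 libraries, 1.19 with a pseudocount of 0.1 and 1.45 with the homeostatic reference. Over the 6 it differed by 0.80, 1.08 with the homeostatic reference, and 0.64 to 1.04 with 1 library left out. On the relative scale, fits with 1 library left out called 0 to 5 genes higher and 0 to 2 lower over the 6 libraries, and 1 to 2 lower over the 5. With the homeostatic reference 0 were lower over the 5 and 1 higher over the 6, as with a pseudocount of 0.1, and the cause was not tested. Shares of all genes called were not counted for these alternatives on the relative scale. The replicate block called 9 of 10 and 201 genes over the 5 libraries, adding Axl (limma adjusted p = 0.0428), and 0 of 10 and 1 gene over the 6. Same-numbered libraries correlated in their deviations at 0.415, 0.279 and 0.0398. Pairs 1 and 2 each correlated best with each other. The third pair, which holds the library labelled 5xFAD replicate 3, did not. Whether the numbers pair the samples cannot be settled from these values. Low WT levels of Itgax, Clec7a and Cst7 limit the precision of their ratios.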
